A study of Mus musculus with 6 samples.

Results

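Chemokines and chemokine receptors were followed as one gene family in whole mouse retina with and without oxygen-induced retinopathy (OIR). The family was taken by gene symbol, as every symbol that starts with Ccl, Cxcl, Cx3cl, Xcl, Ccr, Cxcr, Cx3cr, Xcr or Ackr directly followed by a digit. This rule found 61 of the 22173 genes in the files, and 60 are described here. The 60 comprised 24 Ccl, 12 Cxcl, 1 Cx3cl and 1 Xcl ligand genes, 18 genes of signalling receptors and 4 genes of atypical receptors.

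Retinal RNA was sequenced in 6 libraries, 3 labelled OIR and 3 labelled Control, all from C57BL/6J pups of genotype WT at postnatal day 17. The OIR pups breathed 75% oxygen between day 7 and day 12 and then room air until day 17, a protocol in which retinal vessels regress and abnormal vessels later grow. The Control pups stayed in room air throughout. The labels give no number of animals behind a library, so p-values measure the spread between these libraries, which may in part be technical. The libraries held 35615501 to 38025623 reads. Transcripts of 12 lens genes made up 0.385% of OIR 2 and 4.51% of Control 3 by reads, and 0.0102% to 0.0409% of each other library. All 13 genes of a list of retinal neuron markers passed the expression filter.

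Chemokines are small secreted or membrane-bound proteins that direct the migration of cells, and most of their receptors signal through inhibitory G proteins. Atypical receptors bind chemokines without classical G protein signalling and mainly remove them or shape their gradients. In the retina, CXCL12 and its receptor CXCR4 are known for vessel growth and cell guidance, and CX3CL1 and CX3CR1 for contact between neurons and microglia.

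Values are RPKM, read numbers divided by gene length and by library depth, and reads were recovered from the steps of the values. Of the 60 genes, 12 were at 0 in every library and 24 had 1 to 28 reads over the 6 libraries together. The other 24 were tested with limma, fitted across all genes. In the main test, on log2(RPKM + 1) of genes with at least 1 RPKM in at least 3 libraries, 10 family genes were covered. A low-level test, on log2(RPKM + 0.1) of genes with at least 30 reads in sum, covered 14 more. In the main test 2 of the 10 were higher in OIR and 0 were lower, beside 11.6% and 7.22% of all 12112 genes tested. Their median log2 fold change was 0.04, beside 0.03 over all genes. Among the 14 low genes 4 were higher and 0 lower, beside 8.89% and 2% of the 3508 genes that only this test covered. These 14 had a median of 0.78, beside 0.08 for the 3508 genes. Of the 14, however, 5 had fewer than 15 reads in Control and reached the minimum mainly through their OIR reads, so their count and median support nothing about the family. Single libraries and the scaling moved these counts. Under median-of-ratios scaling, upper-quartile scaling or with lens reads removed from the total, Cx3cl1 was also called lower in the main test. Without OIR 2, or without OIR 2 and Control 3 together, 4 members were called in the main test (Cx3cl1 and Cxcl14 added, both lower) and 7 in the low-level test, and without OIR 1 there were 2 and 2.

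**Figure D1:**
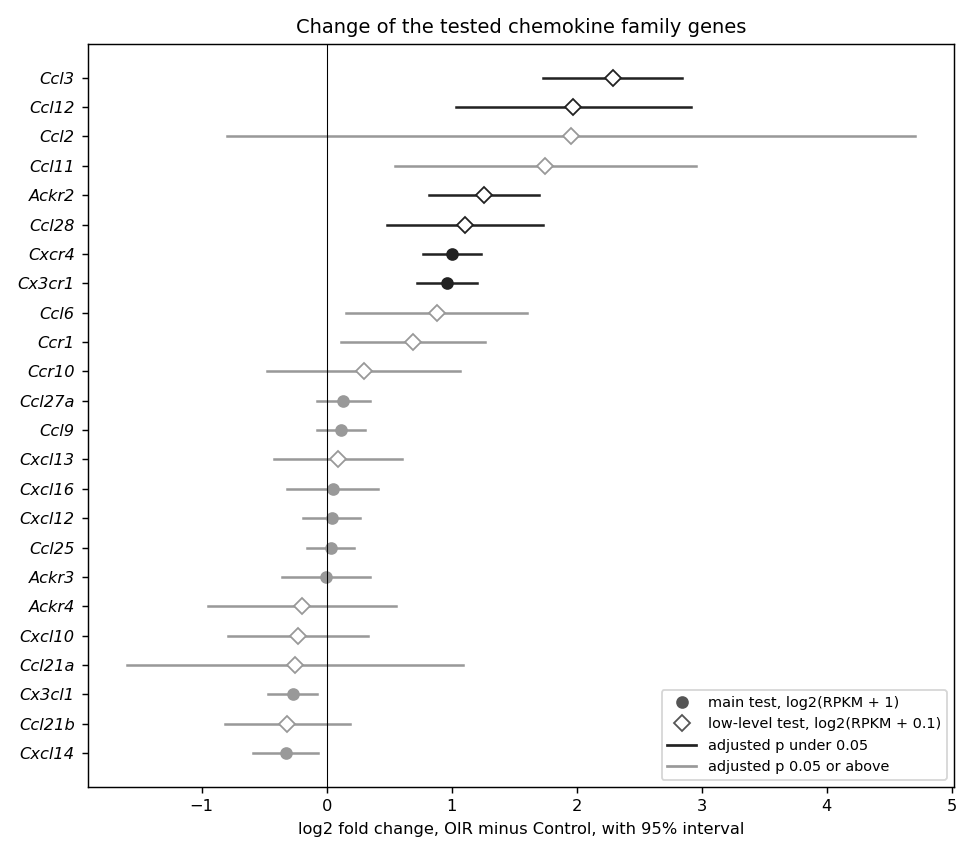
The log2 fold change (OIR minus Control, horizontal axis) of the 24 described and tested family genes, with its 95% interval as a line. Filled circles are from the main test and open diamonds from the low-level test. The 6 genes with an adjusted p under 0.05, in black, all lie to the right of 0.

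The CXCL12 axis was led by its signalling receptor. Cxcr4 was higher in OIR, while its ligand gene Cxcl12 and its scavenging receptor gene Ackr3 did not pass the test. Cxcr4 was at 2.87, 2.63 and 3.52 RPKM in OIR 1, 2 and 3, against 1.12, 0.844 and 1.02 RPKM in Control 1, 2 and 3. Every OIR library lay above every Control library, and 277 to 385 reads in OIR and 90 to 120 reads in Control stood behind these values. The mean was 3.01 ± 0.461 RPKM in OIR and 0.994 ± 0.140 RPKM in Control (SD, n = 3 each), a ratio of 3.03. On log2(RPKM + 1) the difference was 1.0 (SE 0.104, 95% interval 0.77 to 1.23), with an adjusted p of 0.000306.

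Cxcl12, the gene of the ligand, was at 3.11, 2.47 and 2.67 RPKM in OIR 1, 2 and 3, against 2.83, 2.89 and 2.23 RPKM in Control 1, 2 and 3. The groups overlapped, with means of 2.75 ± 0.329 RPKM in OIR and 2.65 ± 0.363 RPKM in Control. The interval of the log2 fold change ran from -0.19 to 0.26, which leaves room for a modest change in either direction, and the adjusted p was 0.815. Between 570 and 824 reads per library gave these values, more than for Cxcr4 in any library. In whole retina, a change in the number of cells of a type and a change in RNA per cell cannot be told apart, for this gene and all others.

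Ackr3, formerly Cxcr7, encodes the atypical receptor that binds and clears CXCL12. Its values were 1.45, 1.19 and 2.29 RPKM in OIR 1, 2 and 3, against 1.26, 1.70 and 1.94 RPKM in Control 1, 2 and 3. OIR 3 was the highest and OIR 2 the lowest of all 6 libraries, so the OIR values enclosed those of Control. Its log2 fold change was -0.01, with a 95% interval from -0.35 to 0.34 and an adjusted p of 0.983. Its sign turned when single libraries were left out, between -0.17 and 0.12, and that of Cxcl12 did so between -0.05 and 0.09.

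The promoters of these genes are shown because they share one receptor-ligand system while 1 of the 3 differed between groups. Sequences are from RefSeq on GRCm38.p6, from 250 bases before to 50 bases after the annotated start. They run 5′ to 3′ on the strand of the gene, with matches to TATAAA on either strand in capitals. Cxcr4 lies on the minus strand at chr1:128592250-128592549, Cxcl12 on the plus strand at chr6:117168285-117168584, and Ackr3 on the plus strand at chr1:90203730-90204029.
Cxcr4: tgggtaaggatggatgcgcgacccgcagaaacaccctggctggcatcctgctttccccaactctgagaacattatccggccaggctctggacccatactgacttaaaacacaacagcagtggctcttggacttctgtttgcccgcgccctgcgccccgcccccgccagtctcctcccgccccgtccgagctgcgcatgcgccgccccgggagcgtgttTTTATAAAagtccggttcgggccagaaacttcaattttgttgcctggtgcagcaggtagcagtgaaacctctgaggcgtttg
Cxcl12: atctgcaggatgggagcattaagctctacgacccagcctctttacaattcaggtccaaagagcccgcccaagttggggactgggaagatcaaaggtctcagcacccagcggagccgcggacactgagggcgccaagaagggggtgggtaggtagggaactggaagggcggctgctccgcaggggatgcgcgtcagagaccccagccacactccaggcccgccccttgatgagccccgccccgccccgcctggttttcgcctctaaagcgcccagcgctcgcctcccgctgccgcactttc
Ackr3: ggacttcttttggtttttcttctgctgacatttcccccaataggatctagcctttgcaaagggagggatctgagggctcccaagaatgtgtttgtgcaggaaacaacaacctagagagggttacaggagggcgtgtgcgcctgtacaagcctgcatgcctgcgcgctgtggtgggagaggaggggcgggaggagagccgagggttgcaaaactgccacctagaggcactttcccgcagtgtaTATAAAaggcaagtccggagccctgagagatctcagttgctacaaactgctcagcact
In Cxcr4 the matches on both strands overlapped, starting 32 and 30 bases before the gene start. In Ackr3 a match started 8 bases before it, and the Cxcl12 window held none. ACGTG, the core of the hypoxia response element, was searched on both strands and was in none of these 3 windows. Of 32851 promoters of this length in the table, 13.6% held TATAAA and 19.6% held ACGTG. Of the 54 promoters listed for 47 of the family genes, 27.8% held TATAAA and 14.8% held ACGTG. A match is only a description of these letters.

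Within each library, Cxcr4 stood higher against its partners in OIR. Cxcr4 per 100 RPKM of Cxcl12 was 92.2, 106.4 and 132.0 in OIR 1, 2 and 3, against 39.6, 29.2 and 45.4 in Control 1, 2 and 3. Cxcr4 per 100 RPKM of Ackr3 was 197.8, 220.2 and 153.8 in the OIR libraries, against 89.3, 49.6 and 52.4 in the Control libraries. The groups did not overlap in either ratio, and each had an exact two-sided permutation p of 0.1, the smallest that 3 against 3 libraries allow (adjusted over the 11 ratios computed, 0.138).

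Cell markers moved in the same direction as Cxcr4. CXCR4 is known on sprouting endothelium and on leukocytes. Of 10 endothelial markers, all covered by the main test, 9 were higher in OIR, beside 11.6% of all genes. Their summed level was 86.6 to 91.3 RPKM in OIR and 48.2 to 54.2 RPKM in Control. Cxcr4 per 100 RPKM of that sum was 3.40 ± 0.582 in OIR and 1.95 ± 0.344 in Control, without overlap (exact two-sided permutation p = 0.1). Of 12 microglial markers in the main test 10 were higher in OIR, beside 11.6% of all genes. P2ry12 and Tmem119 did not pass, at OIR over Control ratios of 1.26 and 1.30, against 3.74 to 3.85 for C1qa, C1qb and C1qc. Of 4 more in the low-level test 2 were higher, beside 8.89% of the low genes, and Siglech and Gpr34 did not pass. The sum of all 16 was 112.1 to 147.9 RPKM in OIR and 46.8 to 52.9 RPKM in Control. Large parts of it were C1qa, C1qb and C1qc, with means of 20.7, 23.5 and 20.5 RPKM in OIR. Their means in Control were 5.55, 6.11 and 5.34 RPKM. Cxcr4 per 100 RPKM of the microglial sum was 2.26 ± 0.185 in OIR and 2.01 ± 0.345 in Control, and the groups overlapped (exact p = 0.4). The part of either cell type in the change of Cxcr4 was not tested.

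**Figure D2:**
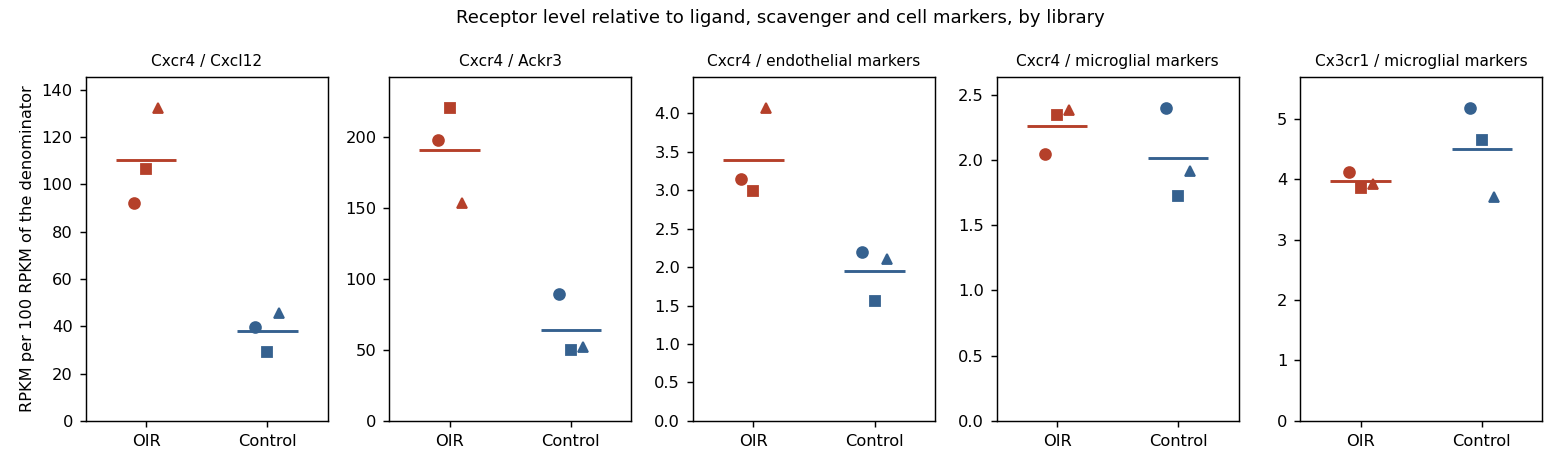
Receptor level in RPKM per 100 RPKM of the gene or summed marker list named above each panel, by library; circles, squares and triangles are libraries 1, 2 and 3, and lines are means. Cxcr4 over Cxcl12, Ackr3 and endothelial markers lies higher in all OIR libraries, while both panels over microglial markers overlap.

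The fractalkine pair was split in the same way, with a higher receptor and a ligand that did not pass. Cx3cr1, which encodes the fractalkine receptor of microglia and monocytes, was at 5.77, 4.32 and 5.79 RPKM in OIR 1, 2 and 3. It was at 2.42, 2.27 and 1.96 RPKM in Control 1, 2 and 3, so all OIR libraries lay above all Control libraries. The mean was 5.30 ± 0.842 RPKM in OIR and 2.22 ± 0.235 RPKM in Control, a ratio of 2.39. On log2(RPKM + 1) the difference was 0.96 (SE 0.109, 95% interval 0.72 to 1.20), with an adjusted p of 0.000505. On log2(RPKM + 0.1), which compresses low values less, it was 1.21. Per 100 RPKM of the microglial markers Cx3cr1 was at 3.96 ± 0.137 in OIR and 4.50 ± 0.743 in Control. This ratio overlapped between the groups (exact two-sided permutation p = 0.4), but it depends on which markers weigh most in the sum. The OIR over Control ratio was 1.26 for P2ry12, 1.30 for Tmem119, 2.18 for Csf1r and 3.74 for C1qa. The part of microglial number in the change of Cx3cr1 was not tested.

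Cx3cl1, the gene of the membrane-bound chemokine fractalkine, had the highest mean level per length of the family in both groups. It was at 34.6, 38.4 and 37.3 RPKM in OIR 1, 2 and 3, against 48.0, 48.0 and 38.4 RPKM in Control 1, 2 and 3. OIR 2 and Control 3 met at 38.4 RPKM, where the groups overlapped. The means were 36.8 ± 1.96 RPKM in OIR and 44.8 ± 5.59 RPKM in Control, a log2 fold change of -0.27 with an adjusted p of 0.0570. Single libraries and the scaling decided whether it was called. Without Control 3, the library richest in lens reads, the log2 fold change was -0.38 with an adjusted p of 0.0113, and without OIR 2 it was -0.30 with an adjusted p of 0.0409. With all 6 libraries kept, the adjusted p was 0.0267 under median-of-ratios scaling and 0.0243 under upper-quartile scaling. It was 0.0319 with lens reads removed from the total. Cx3cl1 per 100 RPKM of Cx3cr1 was 599.2, 889.0 and 643.8 in OIR 1, 2 and 3, against 1984, 2116 and 1957 in Control 1, 2 and 3 (exact two-sided permutation p = 0.1).

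Cxcl14 encodes a CXC chemokine made constitutively in many epithelia and in brain. It was the other abundant member, at 31.6, 40.8 and 28.5 RPKM in OIR 1, 2 and 3, against 41.8, 44.2 and 40.0 RPKM in Control 1, 2 and 3. OIR 2 lay among the Control libraries, and the other OIR libraries lay below them. Its log2 fold change was -0.33 (SE 0.115) with an adjusted p of 0.0803. Without OIR 2 it was -0.47 with an adjusted p of 0.000935. Cx3cl1 and Cxcl14 together made up 61.9%, 68.1% and 59.3% of the summed family RPKM in OIR 1, 2 and 3, against 74.4%, 75.0% and 73.2% in Control 1, 2 and 3. The family sum itself overlapped, at 107.0 to 116.4 RPKM in OIR and 107.1 to 122.9 RPKM in Control. The 22 receptor genes summed to 11.2, 9.39 and 12.5 RPKM in OIR 1, 2 and 3, against 5.34, 5.32 and 5.41 RPKM in Control 1, 2 and 3. Cx3cr1 and Cxcr4 gave 74.1% to 76.9% of that receptor sum in OIR and 55.0% to 66.4% in Control.

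**Figure D3:**
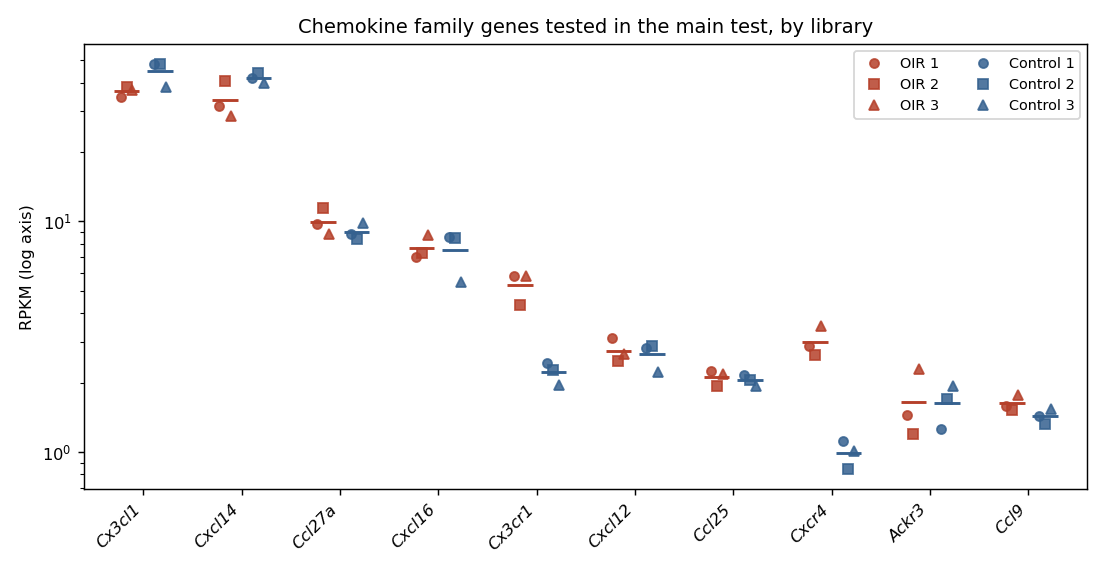
RPKM on a log axis of the 10 family genes covered by the main test, in order of their level; circles, squares and triangles are libraries 1, 2 and 3 of each group and lines are means. Cx3cr1 and Cxcr4 are the 2 genes whose OIR values all lie above their Control values, and the other 8 overlap.

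The groups of the other ligands above the filter overlapped. Ccl27a, a skin-type ligand of CCR10, had 8.82 to 11.4 RPKM in OIR and 8.37 to 9.80 RPKM in Control (log2 fold change 0.13, adjusted p = 0.367). It shares its locus with Il11ra1, and reads of overlapping genes could not be separated. Cxcl16, which encodes a membrane-bound ligand of CXCR6, had 6.98 to 8.75 RPKM in OIR and 5.45 to 8.59 RPKM in Control (0.05, adjusted p = 0.860). Control 3 was the lowest of the 6 libraries, and without it the log2 fold change was -0.14. Cxcl16 overlaps Zmynd15 in the annotation. Ccl25, the thymic and intestinal ligand of CCR9, had 1.93 to 2.24 RPKM in OIR and 1.94 to 2.15 RPKM in Control (0.03, adjusted p = 0.818). Ccl9, a rodent CC ligand of CCR1, had 1.53 to 1.77 RPKM in OIR and 1.32 to 1.53 RPKM in Control (0.11, adjusted p = 0.383). The intervals were -0.08 to 0.34 for Ccl27a, -0.32 to 0.41 for Cxcl16, -0.15 to 0.22 for Ccl25 and -0.08 to 0.31 for Ccl9.

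Of the inducible ligands covered only by the low-level test, Ccl3 and Ccl12 were higher in OIR, at 8 to 33 reads per OIR library. The others did not pass. Both called genes reached the read minimum mainly through OIR, at 48 of 51 reads for Ccl3 and 56 of 64 for Ccl12. A gene that enters in this way is likely to be higher in OIR, and both calls carry that limit. Ccl3, which encodes the macrophage inflammatory protein that binds CCR1, had 14, 16 and 18 reads in OIR 1, 2 and 3, against 0, 2 and 1 in Control 1, 2 and 3. These are 0.544 ± 0.0604 RPKM in OIR and 0.0346 ± 0.0341 RPKM in Control. In the low-level test this was a log2 fold change of 2.29 (SE 0.247, 95% interval 1.73 to 2.84) with an adjusted p of 0.00115. With 3 Control reads, the ratio of summed reads per depth was 15.8, with an exact 95% counting interval from 5.08 to 79.1. Ccl3 overlaps Ccl4 in the annotation, and Ccl4, which encodes a related CC ligand, had 2, 1 and 8 reads in OIR against 0, 5 and 0 in Control.

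Ccl12 encodes the mouse monocyte chemoattractant MCP-5, a ligand of CCR2. It had 15, 8 and 33 reads in OIR 1, 2 and 3, against 4, 2 and 2 in Control 1, 2 and 3. All OIR libraries lay above Control, with OIR 3 far above the others. The mean was 0.928 ± 0.624 RPKM in OIR and 0.135 ± 0.0566 RPKM in Control, with a log2 fold change of 1.97 and an adjusted p of 0.0180. The call ended without OIR 1 (adjusted p = 0.0742), without Control 2 (0.0684) and with a pseudocount of 1 (0.0756).

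Ccl12 lies on chromosome 11 in a row of neighbouring genes with Ccl2, Ccl7, Ccl11 and Ccl8, which encode further ligands of CCR2, CCR3 and related receptors. Its promoter is shown as the only one of the row that was both called and listed in the table, at chr11:82101595-82101894 on the plus strand, with TATAAA in capitals.
Ccl12: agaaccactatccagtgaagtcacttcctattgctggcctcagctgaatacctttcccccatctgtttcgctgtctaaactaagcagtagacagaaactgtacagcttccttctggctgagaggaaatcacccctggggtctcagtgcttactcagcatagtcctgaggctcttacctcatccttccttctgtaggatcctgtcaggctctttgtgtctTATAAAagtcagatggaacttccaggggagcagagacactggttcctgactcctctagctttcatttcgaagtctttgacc
The match started 31 bases before the gene start, and ACGTG was not in this window.

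Ccl2, the main monocyte attractant among them, had 23, 0 and 43 reads in OIR 1, 2 and 3, against 1, 0 and 2 in Control 1, 2 and 3. OIR 2 thus had no read of Ccl2, which allows up to 3 reads, and the groups overlapped. Its log2 fold change was 1.95 with a 95% interval from -0.80 to 4.70 and an adjusted p of 0.289. Without OIR 2 it was 3.12 with an adjusted p of 0.000288. Ccl11, the gene of eotaxin, had 5, 5 and 34 reads in OIR against 0, 0 and 1 in Control. The groups of Ccl11 did not overlap, the log2 fold change was 1.75 and the adjusted p was 0.0589. Without OIR 2 its adjusted p was 0.0368.

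Ccl7 and Ccl8 were too low to test. Ccl7 had 10, 0 and 4 reads in OIR 1, 2 and 3, against 0, 1 and 0 in Control. Ccl8 had 5, 0 and 6 reads in OIR 1, 2 and 3, against 0, 1 and 0 in Control. The 5 neighbours together had 58, 13 and 120 reads in OIR 1, 2 and 3, against 5, 4 and 5 in Control 1, 2 and 3, or 191 against 14 in sum. This group was put together after its values were seen and carries no test. OIR 2 was the lowest OIR library for Ccl2, Ccl7, Ccl12 and Ccl8, while its Ccl3 reads matched those of OIR 1 and OIR 3.

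**Figure D4:**
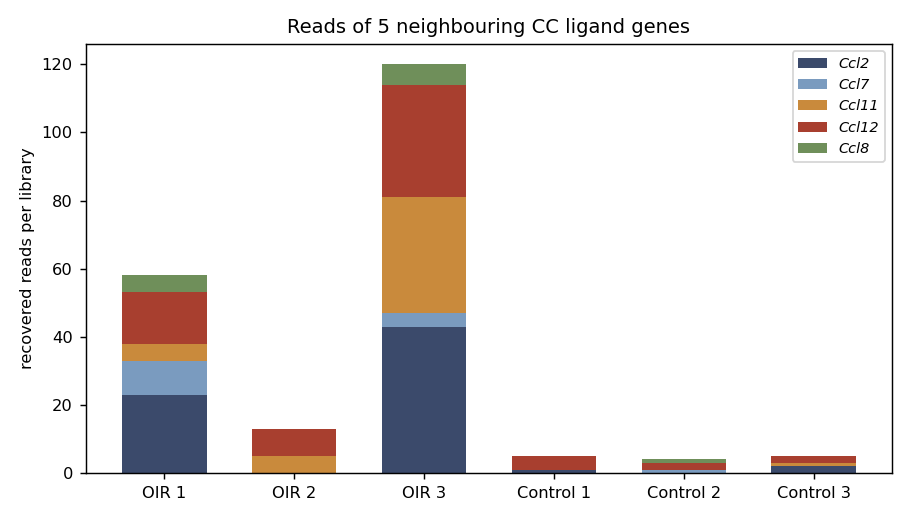
Recovered reads per library of Ccl2, Ccl7, Ccl11, Ccl12 and Ccl8, neighbours on chromosome 11, stacked as bars from 0. OIR 3 reaches 120 reads, OIR 1 58 and OIR 2 13, while the Control bars hold 4 or 5 reads.

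Markers of other leukocytes are given beside these ligands. A list of 8 neutrophil genes had 18, 4 and 40 reads in OIR 1, 2 and 3, against 1, 1 and 0 in Control 1, 2 and 3. Most came from S100a9, a calprotectin subunit, with 11, 1 and 30 reads in OIR and 0 in each Control library, while Ly6g was at 0 in every library. The order of the OIR libraries was that of the 5 ligands, but it was not particular to this list. Microglial markers had the same order, with sums of 140.3, 112.1 and 147.9 RPKM in OIR 1, 2 and 3. T and NK cell genes had it too, at 140, 101 and 192 reads. Endothelial markers did not, at 91.3, 87.9 and 86.6 RPKM. Monocyte and macrophage markers summed to 23.2 to 33.1 RPKM in OIR and 12.3 to 12.8 RPKM in Control. In the main test 2 of 3 were higher and 1 lower, beside 11.6% and 7.22% of all genes. In the low-level test 1 of 6 was higher and 0 lower, beside 8.89% and 2% of the low genes. Of 10 T and NK cell genes the low-level test covered 3, and 1 was higher in OIR, beside 8.89% of low genes. Cd3d and Ncr1 were at 0 throughout. The part of these cells in the ligand reads was not tested.

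Ccl6, a rodent CC chemokine of myeloid cells, had 54, 26 and 50 reads in OIR 1, 2 and 3, against 24, 28 and 11 in Control 1, 2 and 3. OIR 2 lay among the Control libraries. For Ccl6 the log2 fold change was 0.88 with an adjusted p of 0.0945, and without OIR 2 it was 1.16 with an adjusted p of 0.0218. Cxcl10, an interferon-induced ligand of CXCR3, had 5 to 12 reads in OIR and 9 to 12 in Control (log2 fold change -0.23, 95% interval -0.79 to 0.33, adjusted p = 0.581). Cxcl10 overlaps Art3, and its receptor gene Cxcr3 had at least 1 read, in 1 Control library only.

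The neutrophil-attracting CXC ligands were barely detected. Cxcl1 had 1, 2 and 16 reads in OIR 1, 2 and 3, against 1, 0 and 4 in Control 1, 2 and 3, so OIR 3 held most of them. Cxcl2, Cxcl3 and Cxcl5 had 1, 3 and 1 reads over all libraries. For Cxcl2 and Cxcl5 this is the smallest number that their value in 1 library allows. The receptor genes of these ligands, Cxcr1 and Cxcr2, were at 0 in every library. The promoters of Cxcl1, Cxcl2, Cxcl3 and Cxcl10 hold GGANTTTCC, a pattern of the NF-kappaB site searched on both strands, and are shown for that shared site. It was in 1.25% of all promoters in the table and in 9.26% of the family's, where Ccr3 was the other gene. Each line gives the match in capitals with 10 bases on either side, at chr5:90891165-90891193 (Cxcl1, plus strand), chr5:90903793-90903821 (Cxcl2, plus strand), chr5:90786019-90786047 (Cxcl3, plus strand) and chr5:92349029-92349057 (Cxcl10, minus strand).
Cxcl1: ctgtactccgGGAATTTCCctggcccgga
Cxcl2: ctgagctcagGGAATTTCCctggtccccg
Cxcl3: agctgcggggGGAATTTCCccagcccggg
Cxcl10: gaggggagagGGAAATTCCaagttcatgg
These letters are a description of the sequence and say nothing about binding.

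Receptors of inflammatory CC ligands were low. Ccr1, which encodes a receptor of CCL3, had 12, 6 and 13 reads in OIR 1, 2 and 3, against 0, 4 and 3 in Control 1, 2 and 3. The groups did not overlap, and the adjusted p was 0.10 at a log2 fold change of 0.69. Ccr2, the receptor gene for CCL2 and CCL12 on inflammatory monocytes, had 11, 0 and 5 reads in OIR against 1, 5 and 6 in Control, too few to test. Ccl5, the gene of the T cell chemokine RANTES, had 9, 3 and 3 reads in OIR against 0, 0 and 2 in Control.

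Ackr2 was the atypical receptor gene that passed. ACKR2, also known as D6, takes up and degrades inflammatory CC chemokines and is known from lymphatic endothelium and other barrier cells. Ackr2 had 79, 70 and 59 reads in OIR 1, 2 and 3, against 21, 23 and 21 in Control 1, 2 and 3. The groups lay far apart, at 0.589 ± 0.0932 RPKM in OIR and 0.186 ± 0.00879 RPKM in Control, a ratio of 3.16. Ackr2 had a log2 fold change of 1.26 (SE 0.196, 95% interval 0.82 to 1.70) with an adjusted p of 0.00575. Leaving out any 1 library kept the call, with adjusted p from 0.00571 to 0.0353. Per 100 RPKM of endothelial markers Ackr2 was at 0.663 ± 0.0886 in OIR and 0.365 ± 0.0192 in Control, without overlap (exact two-sided permutation p = 0.1). Ackr4, the scavenger of CCL19, CCL21 and CCL25, had 7, 11 and 1 reads in OIR 1, 2 and 3, against 4, 6 and 16 in Control 1, 2 and 3 (log2 fold change -0.20, adjusted p = 0.731). Ackr4 overlaps Acad11 in the annotation. Ackr1, the Duffy receptor of venules and red cells, had 4 reads in OIR 2, 1 in Control 1 and 0 elsewhere.

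Of the constitutive low ligands, Ccl28 was called. CCL28 is a mucosal ligand of CCR10 and CCR3. Ccl28 had 98, 55 and 75 reads in OIR 1, 2 and 3, against 19, 43 and 19 in Control 1, 2 and 3, without overlap. The mean was 0.479 ± 0.135 RPKM in OIR and 0.172 ± 0.0863 RPKM in Control, with a log2 fold change of 1.11 and an adjusted p of 0.0295. The call ended without OIR 1 (adjusted p = 0.122), OIR 3 (0.0771), Control 1 (0.0998) or Control 3 (0.0709). Ccr10, its receptor gene, had 7, 23 and 15 reads in OIR against 16, 11 and 5 in Control (log2 fold change 0.30, adjusted p = 0.602), and it overlaps Cntnap1.

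The lymphoid ligands did not pass. Cxcl13, the B cell attractant, had 14 to 23 reads in OIR and 13 to 21 in Control (log2 fold change 0.09, adjusted p = 0.819). Its receptor gene Cxcr5 had 5, 1 and 2 reads in OIR 1, 2 and 3, and 0 in each Control library. Ccl21b, which encodes a CCR7 ligand, had 20, 18 and 11 reads in OIR against 23, 24 and 23 in Control, the single tested member with all OIR values below all Control values. Its log2 fold change was -0.31 with an adjusted p of 0.369. Ccl21a had 4, 4 and 2 reads in OIR 1, 2 and 3, against 2, 1 and 17 in Control 1, 2 and 3 (log2 fold change -0.25, adjusted p = 0.800). The Ccl21 genes are near-identical copies, so the split of reads between them is uncertain. The recovered length was 4053 bases for Ccl21b and 868 bases for Ccl21a. Reads of the Ccl21b entry may therefore lie outside the sequence that the copies share, which could not be checked. Ccl19 and Ccr7 were at 0 throughout.

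**Figure D5:**
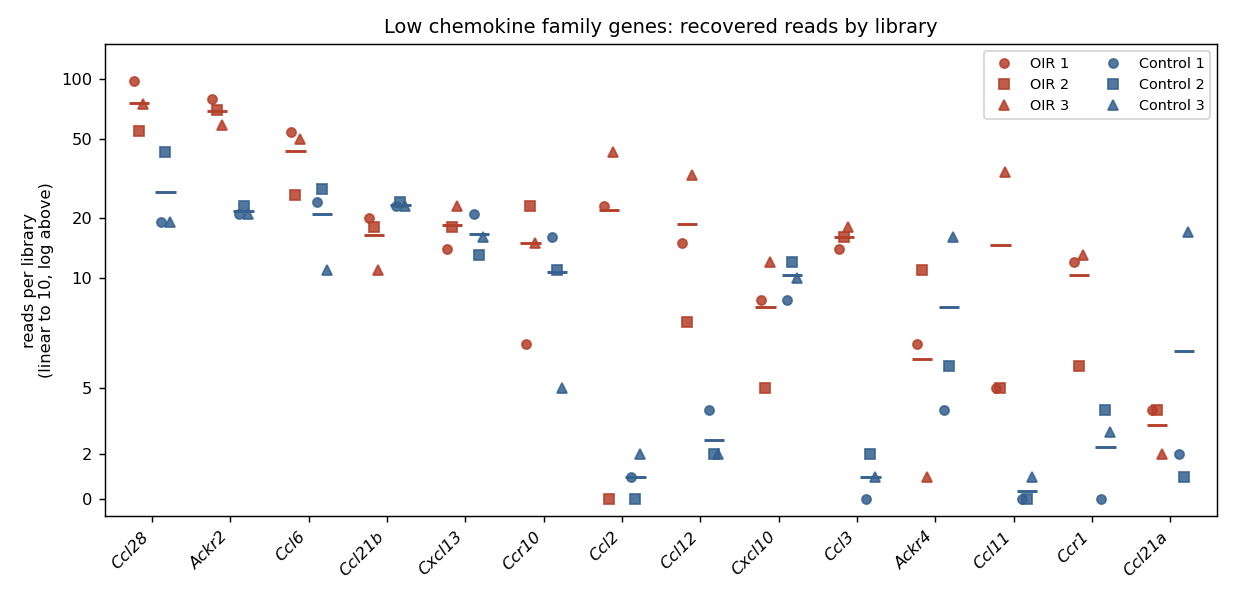
Recovered reads per library (linear up to 10 and logarithmic above) of the 14 described family genes covered only by the low-level test, in order of their summed reads; symbols are libraries 1 to 3 of each group and lines are means. Ackr2 and Ccl3 show tight, separate groups, while Ccl2, Ccl11 and Ccl12 are spread widely over the OIR libraries.

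In all, 2 of the 10 genes in the main test and 6 of the 14 low genes had every OIR value above every Control value, and 0 and 1 had every OIR value below. Over all genes, 23.6% lay above and 15% below in the main test, and 19.9% and 9.24% did so among the 3508 genes that only the low-level test covered. Of the 6 low genes, Ccl3, Ccl11, Ccl12 and Ccr1 reached the read minimum mainly through their OIR reads, so the count of 6 supports nothing about the family. The 24 sparse members had 51, 19 and 56 reads in OIR 1, 2 and 3, against 11, 21 and 19 in Control 1, 2 and 3. OIR 2 was again below the other OIR libraries. Of these 24 genes 5 had reads only in OIR (Cxcr5, Ccr1l1, Cxcl2, Cxcl5 and Xcr1) and 7 only in Control (Ccl1, Ccl20, Ccl27b, Ccr6, Ccr9, Cxcr3 and Cxcr6). All of these but Cxcr5 had a value in 1 library only, where the number of reads is the smallest that the value allows. Ccl17, Ccl22, Ccl24 and Cxcl9 had 17, 10, 5 and 6 reads over all libraries. The 12 genes at 0 in every library were Ccl19, Ccl21d, Ccl26, Cxcl15, Cxcl17, Xcl1, Ccr3, Ccr4, Ccr7, Ccr8, Cxcr1 and Cxcr2, and a count of 0 allows up to 3 reads in a library.

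Genes that act with the receptors were counted from a separate list. In the main test 4 of 20 signalling partners were higher in OIR and 3 lower, beside 11.6% and 7.22% of all genes. In the low-level test 5 of the 9 that it alone covered were higher and 0 lower, beside 8.89% and 2% of the low genes. Low genes of this and every other list can reach the read minimum mainly through OIR reads. As for the family, low-level counts therefore support nothing about a list. Gnai2, the inhibitory G protein subunit through which leukocyte chemokine receptors signal, was at 188.0 ± 18.3 RPKM in OIR and 130.8 ± 7.30 RPKM in Control (adjusted p = 0.00334). Rac2, a haematopoietic GTPase of the migration machinery, was at 0.896 ± 0.326 RPKM in OIR and 0.161 ± 0.0327 RPKM in Control (adjusted p = 0.00289). The others higher were Rgs2, Lyn, Stat3, Dock2, Vav1, Was and Fgr, of which Dock2, Vav1, Was and Fgr are chiefly haematopoietic. Gnai1, Gng2 and Elmo1 were lower, with Gnai1 at 9.84 ± 1.80 RPKM in OIR and 14.5 ± 1.14 RPKM in Control. The arrestin genes Arrb1 and Arrb2 did not pass.

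Chemokines and chemoattractant receptors under other symbols were counted too. In the main test 4 of 8 were higher in OIR and 0 lower, beside 11.6% and 7.22% of all genes. In the low-level test 3 of 7 were higher and 0 lower, beside 8.89% and 2% of the low genes. The same limit holds for this and the following low-level counts. Pf4, the gene of the CXC chemokine platelet factor 4, was at 1.08 ± 0.267 RPKM in OIR and 0.217 ± 0.0294 RPKM in Control (adjusted p = 0.00166). C5ar1, the gene of the complement C5a receptor of myeloid cells, was at 0.508 ± 0.0586 RPKM in OIR and 0.0709 ± 0.0265 RPKM in Control (adjusted p = 0.00167). Of the genes that process or present chemokines, 4 of 20 in the main test were higher and 0 lower, beside 11.6% and 7.22% of all genes, and the 1 low gene tested did not pass. Mmp14, a membrane metalloproteinase, was at 14.9 ± 0.819 RPKM in OIR and 8.88 ± 0.198 RPKM in Control, and Adam17, a sheddase of CX3CL1, was at 5.93 ± 0.338 RPKM in OIR and 4.68 ± 0.145 RPKM in Control (adjusted p = 0.0254). Among genes that induce chemokines, 8 of 14 in the main test were higher and 0 lower, beside 11.6% and 7.22% of all genes. In the low-level test 2 of 5 were higher and 0 lower, beside 8.89% and 2% of the low genes. Rela, the NF-kappaB subunit p65, was at 12.3 ± 1.58 RPKM in OIR and 8.30 ± 0.727 RPKM in Control (adjusted p = 0.00703). The cytokine genes Tnf and Il1b had 18 and 13 reads in OIR against 1 and 5 in Control, too few to test.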

How the data were processed

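Whole retina was measured in 3 OIR and 3 Control libraries. The authors deposited 1 value per gene and library in RPKM, read numbers divided by gene length and library size. Alignment tools listed, per the submitters' processing notes, were TopHat2 2.0.12 and Bowtie2 2.0.6. Not given in the sources used here were genome build, annotation, counter and strand, and the library protocol in the labels describes another species. Reads shared by overlapping or near-identical genes therefore could not be assigned.

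Low values take steps of 1 read, which gave relative depth, and lengths of GENCODE transcripts of 120 genes gave absolute depth. All 17953 genes above 0 came out as whole reads within 0.02 of a read. Where a gene has a value in 1 library, its read number is the smallest that fits. Reads were used for support, ratios of counts and one alternative. Counting intervals cover counting error only.

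Groups were compared with limma 3.58.1 in R 4.3.3 (trend and robust, group as the only term, 4 residual degrees of freedom, two-sided). P-values were adjusted by Benjamini-Hochberg over all genes tested, at a threshold of 0.05. The main test used log2(RPKM + 1) of 12112 genes with at least 1 RPKM in at least 3 libraries. The low-level test used log2(RPKM + 0.1) of 15620 genes with at least 30 reads in sum, and served members that the main test did not cover. Fold changes on these scales understate the change of low genes. In simulated data of 12120 genes for this comparison, the main test recovered 88% of genes changed 1.5-fold. In its step of 15611 genes the low-level test recovered 32.7% of those changed 1.5-fold and 68% of those changed 2-fold. The simulated counts had the same relative spread for all genes and no deviating library. These shares may therefore exceed what the real libraries allow. A count test planned for count tables was not used, since the values are not counts. Ratios within libraries were compared by exact permutation.

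1 family member is not reported here. The others are accounted for, and those tested are described. From the other lists, signalling partners that passed and the few strongest genes are named. The family and all lists were chosen with earlier results of these data known. Alternatives were other scalings, pseudocounts and filters, limma-voom on the recovered reads, the replicate number as a block and each library left out. Leaving out OIR 2 and Control 3 together was added after seeing the data. Promoters were matched by symbol to RefSeq (GRCm38.p6).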

Additional observations from a re-analysis of the deposited data

How the results depend on the processing

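Cxcr4 and Cx3cr1 stayed higher and past the threshold under all 17 alternatives run for each, Ackr2 under all 18 and Ccl3 under all 17. Ccl3 had 48 reads in OIR and 3 in Control, so it reached the read minimum mainly through OIR. At a minimum of 60 reads Ccl3 was not covered. Ccl12 was called under 14 of 18 and Ccl28 under 12 of 18. In the main test 2 members were called. Without a filter 5 were called (Ackr2, Ccl28 and Ccl3 added), and 1 where the log2 fold change also had to reach 1 (Cxcr4). Median-of-ratios scaling, upper-quartile scaling and lens reads removed from the total each gave 3 (Cx3cl1 added, lower). Without OIR 2 and Control 3 together 4 were called (Cx3cl1 and Cxcl14 added), and 2 to 4 with single libraries left out. In the low-level test 4 were called, and 3 with a pseudocount of 1 or of 0.5, 7 without OIR 2 and Control 3 together, and 2 (without OIR 1) to 7 (without OIR 2) with single libraries left out. In that test limma-voom called 5, with Ccl11 at an adjusted p of 0.0295. The causes were not tested.

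The deviations of same-numbered libraries from their group means correlated at 0.22, -0.44 and -0.41. With 3 libraries per group, such values cannot show whether the replicate numbers pair the libraries. With the replicate number as a block, 3 members were called in the main test, Cxcl14 added at an adjusted p of 0.0230, and 4 in the low-level test, where Ccl28 was lost at 0.0518 and Ccl11 was called at 0.0276.

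Changes of sign were seen for members that were never called. Without Control 3, the one library above 0.5% lens reads, log2 fold changes were 0.078 for Ackr3, 0.079 for Ackr4, 0.47 for Ccl21a, -0.046 for Cxcl12 and -0.14 for Cxcl16. Without OIR 2 and Control 3 together they were 0.20 for Ackr3, 0.38 for Ccl21a, -0.23 for Ccr10 and -0.11 for Cxcl16. With single libraries left out and the filter applied again, they ranged from -0.17 to 0.12 for Ackr3 and 0.02 to 0.60 for Ccr10. The ranges were -0.046 to 0.093 for Cxcl12, -0.046 to 0.23 for Cxcl13 and -0.14 to 0.15 for Cxcl16. Ackr4 ranged from -0.40 to 0.064 over 5 fits, as it missed the filter without Control 3. Its value of 0.079 above kept the filter over all 6 libraries.

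Over all genes, the main test called 1407 higher and 875 lower. Median-of-ratios scaling called 1331 higher and 1268 lower, and upper-quartile scaling 1216 higher and 1379 lower. Without OIR 1 it called 410 higher and 198 lower, and without OIR 2 and Control 3 together 1943 lower. At under 30 reads in sum, changes of family members could not be tested at this depth.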
